A study of Schizosaccharomyces pombe with 12 samples.

Results

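The response of wild type fission yeast (Schizosaccharomyces pombe) to hydrogen peroxide was read from 4 of the 12 libraries of the series, 2 of untreated and 2 of treated cells, by comparing every gene between them. The strain was WT (972), grown in the rich medium YE5S at 30 ºC to an OD600 of 0.5, and treated cells spent 30 min in 1 mM hydrogen peroxide. PolyA RNA from hot phenol extracts was sequenced with a stranded mRNA kit. The other 8 libraries came from ubp8 and ubp16 mutants, which carry the names of genes for ubiquitin-specific proteases and were grown and treated in the same way, untreated or with peroxide. How these genes were altered is not stated in the labels. Nor is it stated if replicate libraries stem from different cultures, and the p-values therefore reflect only the scatter among these libraries, which may be technical.

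Peroxide oxidises thiols, metals and lipids, and fission yeast senses it through the MAP kinase Sty1, which acts on the transcription factor Atf1, and through the AP-1-like factor Pap1. Detoxifying enzymes and chaperones are the classical targets of these pathways, while ribosome synthesis and growth genes are commonly turned down under stress. The genes described here are mainly those outside 5 lists of classical stress genes. They include enzymes of carbon and vitamin metabolism, transporters, cell wall and division genes, signalling genes, uncharacterized proteins and non-coding RNAs. Absence from these lists does not place a gene outside the Sty1 and Atf1 pathway, and some list members are described too.

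Total counts in the 4 wild type libraries ran from 9904056 to 11909757, and the 2 libraries of a group correlated at 0.9887 (untreated) and 0.9897 (treated) in log2 CPM across genes, which are not independent replicates. Levels are CPM, counts scaled to library size with TMM factors and expressed per 1e6, and are listed as untreated libraries 1 and 2, then treated libraries 1 and 2. Changes are log2 fold changes, treated minus untreated, ± SE. A gene was called, and is said to have risen or fallen, at an adjusted p under 0.05 in edgeR's quasi-likelihood test. Catalase mRNA checked the treatment labels: ctt1 stood at 118, 166, 2517 and 3175 CPM. The transcript of ubp8 stood at 33.9, 34.1, 29.9 and 37.5 CPM, with groups that overlap. That of ubp16 stood at 46.7, 54.3, 20.5 and 25.6 CPM and fell (-1.13 ± 0.15). Among mating-type genes, the 8 M-cell markers summed to 92.5 and 85.8 CPM untreated and 53.2 and 55.2 CPM treated, with 4 of them below 1 CPM. The 3 P-cell markers summed to 532 and 588 CPM untreated and 749 and 827 CPM treated, nearly all of it sxa1, which encodes a protease. That gene rose, while the other P-cell markers, map2 and map3, both fell by at least 2-fold.

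Of 4954 coding genes tested, 1473 rose, which is 29.7% of them, and 1810 fell, which is 36.5%. Calls within the gene groups below are to be read against these shares. By at least 2-fold, 520 rose (10.5%) and 576 fell (11.6%). By at least 8-fold, 99 rose and 36 fell. Over all 8166 genes tested, non-coding RNAs included, the calls were 2139 higher (26.2%) and 2207 lower (27%), 1077 and 865 of them by at least 2-fold (13.2% and 10.6%). Rises of at least 2-fold weighed more in the RNA pool than falls of that size. The 520 coding genes that rose at least 2-fold held 5.55% and 5.74% of all counts in the untreated libraries and 22% and 22.6% in the treated ones. The 576 that fell held 8.21% and 8.3% before and 2.42% and 2.33% after. These shares come from the genes chosen for their change and are a description. All shares in a library add up to 100%, so the rest of the gain was matched by losses outside both groups. Cytosolic ribosomal protein genes, for example, went from 23.6% and 24.9% of counts to 19.2% and 19.4%. The median change was -0.08 over coding genes and -0.04 over all genes tested. Scaled by library totals these medians were -0.27 and -0.23, a shift of -0.19, and changes smaller than this may depend on the scaling. With that scaling 1686 genes were called higher and 2948 lower.

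**Figure D1:**
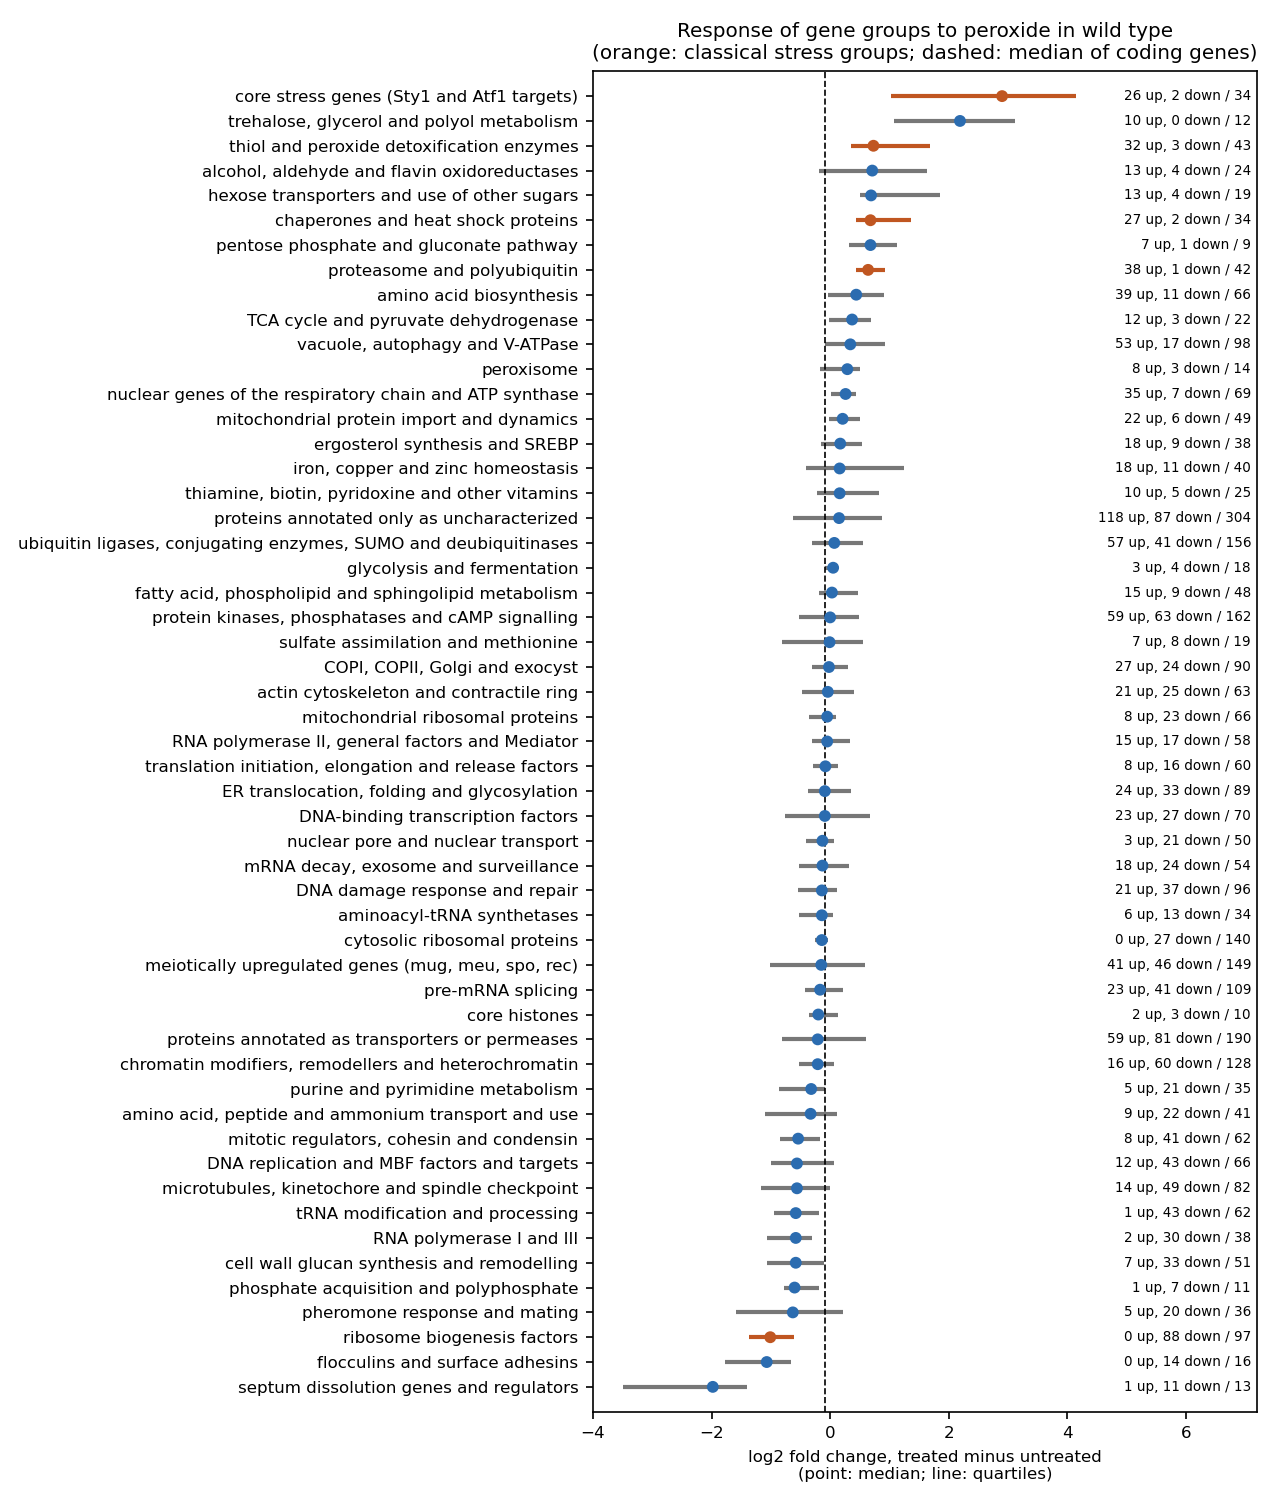
Median log2 fold change (points) and quartiles (lines) of treated minus untreated wild type for groups of coding genes, with the number of members called higher and lower of those tested at the right. Septum dissolution genes had the lowest median, -1.98, and core stress genes the highest, 2.90; the dashed line is the median of coding genes, -0.08.

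Genes outside the classical stress groups were among the most strongly induced. Among coding genes outside those groups that were called, averaged at least 50 counts and did not overlap between conditions, the 20 largest rises ran from 4.73 to 9.21 on the log2 scale in the fit, and 6 of the 20 encode proteins annotated only as uncharacterized. The first of the 20 was SPAC3G6.07, an uncharacterized protein gene, which stood at 0.195, 0, 64.3 and 57.8 CPM. Its 2 counts over the untreated libraries against 1197 over the treated ones gave a ratio of 657, with an exact 95% interval of 182 to 5433 that covers counting error only. Its fitted value of 9.21 depends on the prior count of the fit. Next came SPBC24C6.09c, which encodes a phosphoketolase family protein, an enzyme type that cleaves sugar phosphates to acetyl phosphate. It stood at 4.39, 5.56, 1215 and 1424 CPM, so that the treated libraries lay far above the untreated ones (8.04 ± 0.34, adjusted p = 3.27e-11). SPAC513.02, of the phosphoglycerate mutase and 6-phosphofructo-2-kinase family, stood at 6.84, 5.47, 647 and 608 CPM (6.67 ± 0.24, adjusted p = 6.18e-12). Some induced genes reached the level of abundant housekeeping transcripts. The NAD-binding dehydrogenase gene SPACUNK4.17 went from 52.2 and 67.9 to 5834 and 6373 CPM (6.67 ± 0.30). The SBDS family gene rtc3 went from 48 and 68.9 to 4334 and 4804 CPM (6.29 ± 0.31). Both were among the 12 called coding genes that gained most CPM, next to classical members such as ddr48 (15, 23.8, 6060 and 6941 CPM). Also among these 12 was SPCC1235.01, an uncharacterized gene at 662, 1035, 5106 and 5843 CPM (2.69 ± 0.26). Treated and untreated libraries did not overlap for any of these genes, which the rule that named the 20 required.

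**Figure D2:**
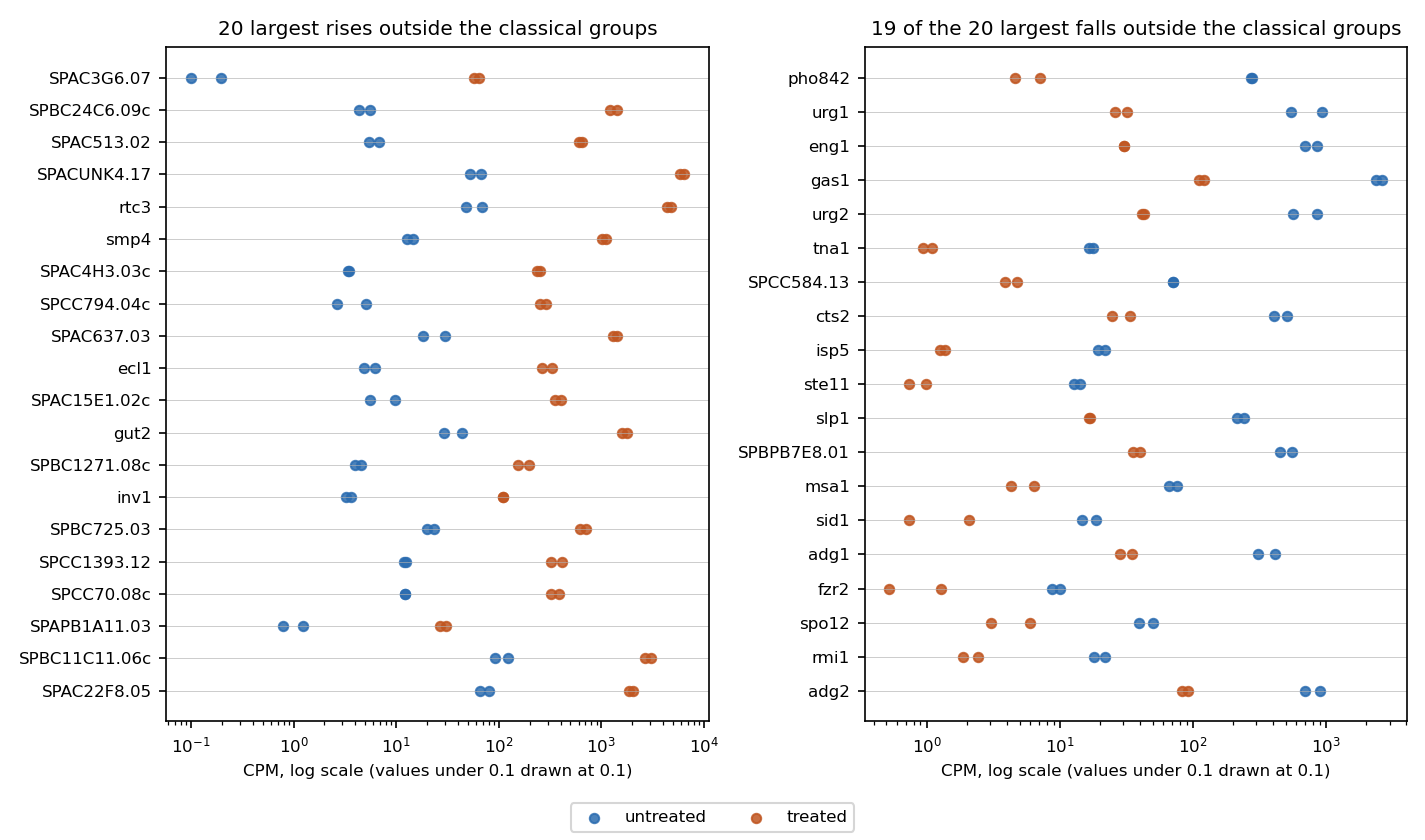
CPM on a log axis in each of the 2 untreated and 2 treated wild type libraries for the 20 largest rises and 19 of the 20 largest falls outside the classical groups. Libraries of a condition lie close together and the conditions do not overlap, as the choice of genes required; SPACUNK4.17 went from 52.2 and 67.9 to 5834 and 6373 CPM.

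The promoters of strongly induced genes held the core of the Atf1 site more often than other promoters. Of the promoters of the 20 largest rises 6 held it, and 4 of these 6 are shown. They belong to SPAC3G6.07, smp4, SPAC15E1.02c and the glycerol-3-phosphate dehydrogenase gene gut2. The products of smp4 and SPAC15E1.02c have no described role in the annotation used. Each line gives the 250 bases before the annotated transcript start in RefSeq's assembly ASM294v3, read 5′ to 3′ on the gene's strand, with matches to TGACGT or its reverse complement in capitals. The windows lie at chrI:5391975-5392224, plus strand (SPAC3G6.07), chrIII:954980-955229, plus strand (smp4), chrI:3721837-3722086, minus strand (SPAC15E1.02c) and chrIII:1843257-1843506, minus strand (gut2).
SPAC3G6.07: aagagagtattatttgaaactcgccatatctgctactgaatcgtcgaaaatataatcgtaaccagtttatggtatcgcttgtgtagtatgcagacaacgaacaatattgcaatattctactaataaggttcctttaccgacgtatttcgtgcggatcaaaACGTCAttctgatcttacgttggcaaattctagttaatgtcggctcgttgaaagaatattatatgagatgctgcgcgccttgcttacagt
smp4: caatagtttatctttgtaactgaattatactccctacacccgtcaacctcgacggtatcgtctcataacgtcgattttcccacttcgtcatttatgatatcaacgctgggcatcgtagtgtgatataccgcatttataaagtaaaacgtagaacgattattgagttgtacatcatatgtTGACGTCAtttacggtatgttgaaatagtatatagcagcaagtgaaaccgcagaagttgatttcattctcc
SPAC15E1.02c: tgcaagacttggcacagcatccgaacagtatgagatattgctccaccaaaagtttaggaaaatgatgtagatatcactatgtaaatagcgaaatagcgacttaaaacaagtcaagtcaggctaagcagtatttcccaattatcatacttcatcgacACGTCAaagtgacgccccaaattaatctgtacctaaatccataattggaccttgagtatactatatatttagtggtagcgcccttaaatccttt
gut2: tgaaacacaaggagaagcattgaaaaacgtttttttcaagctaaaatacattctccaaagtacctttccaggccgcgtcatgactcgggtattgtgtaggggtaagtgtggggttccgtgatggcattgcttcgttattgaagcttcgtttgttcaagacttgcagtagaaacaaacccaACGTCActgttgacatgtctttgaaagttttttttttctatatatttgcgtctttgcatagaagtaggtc
In smp4 matches on both strands overlap as a palindrome. On either strand TGACGT occurred in 30.3% of the 99 promoters of coding genes that rose at least 8-fold, and in 28.9% of the 76 of them outside the classical groups. The share was 17.6% of 421 promoters among genes that rose 2- to 8-fold and 4.04% of 3858 among genes that changed less or were not called. Among genes that fell it was 2.59% of 540 for falls of 2- to 8-fold and 5.56% of 36 for larger falls. Over all 5112 promoters it was 5.52%. The Pap1 site TTACTAA occurred in 10.1% of the promoters of genes that rose at least 8-fold and in 10.7% of all promoters, and the heat shock element GAANNTTC in 10.1% and 9.49%. Within classical groups TTACTAA occurred in 25.6% of 43 thiol and peroxide detoxification promoters and 8.82% of 34 chaperone promoters. For GAANNTTC these shares were 6.98% and 38.2%. These are letter matches with no test.

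Most genes of trehalose, glycerol and polyol metabolism rose. Of 12 genes of trehalose, glycerol and polyol metabolism 10 rose and none fell, with a median of 2.19, and their summed share of counts went from 0.261% and 0.295% to 1.26% and 1.32%. The mitochondrial glycerol-3-phosphate dehydrogenase gene gut2 stood at 29, 43.5, 1599 and 1778 CPM (5.54 ± 0.29). The cytosolic gpd1, whose enzyme makes glycerol 3-phosphate on the way to glycerol, stood at 893, 1284, 4930 and 5832 CPM (2.31 ± 0.21). Outside that list SPAC22F8.05, among the 20 largest rises and annotated as a trehalose-phosphate synthase, went from 65.4 and 80.9 to 1863 and 2014 CPM (4.73 ± 0.20). The trehalase gene ntp1, whose product splits trehalose, went from 106 and 128 to 1294 and 1389 CPM (3.52 ± 0.19). The list member tps2 did not pass (97.2, 85.1, 88.2 and 99.7 CPM). The glucosidase gene SPAC4H3.03c, also among the 20 and on no list, stood at 3.42, 3.44, 234 and 254 CPM (6.15 ± 0.30).

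Most genes on a list of hexose transporters and of the use of other sugars rose, while most glycolysis and fermentation genes were not called. Of 19 hexose transporter and sugar use genes tested 13 rose and 4 fell, with a median of 0.69. The invertase gene inv1, which encodes the secreted enzyme that splits sucrose, stood at 3.22, 3.62, 109 and 110 CPM (4.99 ± 0.18). The galactose pathway gene gal10 stood at 3.13, 5.12, 35.7 and 38.3 CPM (3.15 ± 0.31), and the sucrose and maltose transporter gene sut1 at 35.4, 36, 210 and 227 CPM (2.61 ± 0.17). Hexose transporter genes moved both ways: ght2 rose (2.08 ± 0.16), and ght5 (-0.68 ± 0.15) and ght8 (-0.39 ± 0.10) fell, ght8 not passing without treated library 1 (-0.30). Of 18 glycolysis and fermentation genes 3 rose and 4 fell, and their median was 0.05, or -0.14 scaled by library totals. The minor enolase gene eno102 was the exception in size, at 2.54, 2.3, 60.1 and 61.3 CPM (4.65 ± 0.27). The pyruvate decarboxylase gene pdc101 (-0.79 ± 0.14) and the alcohol dehydrogenase gene adh1 (-0.58 ± 0.11), which lead to ethanol, fell. In the pentose phosphate pathway, which supplies NADPH, 7 of 9 genes rose and 1 fell. Its entry enzyme gene zwf1 stood at 425, 470, 1888 and 2078 CPM (2.15 ± 0.14), and gnd1 followed at 1416, 1535, 4296 and 4590 CPM (1.59 ± 0.14). The isomerase gene rki1, of the non-oxidative branch, fell (-0.53 ± 0.09).

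Oxidoreductases outside the thiol systems were mixed, with some very large rises. Of 24 alcohol, aldehyde and flavin oxidoreductase genes 13 rose and 4 fell, with a median of 0.71, beside 32 up and 3 down of 43 with a median of 0.73 for thiol and peroxide detoxification genes. The succinate-semialdehyde dehydrogenase gene ssd2, also on the core stress list, went from 5.47 and 6.45 to 1037 and 1088 CPM (7.47 ± 0.37). SPAC19G12.09, annotated as an indole-3-acetaldehyde reductase, stood at 100, 121, 1483 and 1574 CPM (3.79 ± 0.16), and the aldo-keto reductase gene SPBC215.11c at 54.5, 77.3, 622 and 706 CPM (3.33 ± 0.21). The aldehyde dehydrogenase gene atd1 fell (-0.79 ± 0.18), as did the flavin monooxygenase gene fmo1 (-1.05 ± 0.12).

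Among cofactor genes, 5 that handle vitamin B6 rose, a set picked after the values were seen. Of 25 genes for vitamins and their transporters 10 rose and 5 fell (40% and 20%). The median was 0.16, or -0.03 scaled by library totals. Pyridoxal phosphate is the cofactor of many aminotransferases. The pyridoxamine phosphate oxidase gene SPBC725.03 stood at 19.9, 23.6, 626 and 716 CPM (4.94 ± 0.26). Further rises were in sno1, a glutamine aminotransferase subunit gene of pyridoxal phosphate synthesis (1.99 ± 0.10), in the vitamin B6 importer gene bsu1 (1.89 ± 0.11), in SPCC576.17c, annotated as a pyridoxine transporter (2.36 ± 0.15), and in the pyridoxal reductase gene plr1 (1.59 ± 0.13). The pantothenate importer gene liz1 rose (1.62 ± 0.11). In contrast the nicotinic acid transporter gene tna1 fell from 17.8 and 16.5 to 0.947 and 1.09 CPM (-4.06 ± 0.28), and the thiamine-repressible phosphatase gene pho4 (-1.39 ± 0.12) and the NADH kinase gene pos5 (-1.22 ± 0.14) fell.

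Genes for proteins with no assigned function moved in both directions. Of 373 genes annotated only as uncharacterized 304 passed the count filter, of which 118 rose and 87 fell (38.8% and 28.6%, beside 29.7% and 36.5% of coding genes), 61 and 41 by at least 2-fold (20.1% and 13.5%, beside 10.5% and 11.6%). Their median was 0.15, or -0.04 scaled by library totals, and their share of counts went from 1.47% and 1.48% to 2.80% and 2.87%. Among those averaging at least 50 counts, the largest rises were in SPAC3G6.07, SPAC637.03 (18.1, 30.2, 1292 and 1417 CPM), SPAC15E1.02c (5.57, 9.8, 356 and 408 CPM) and SPBC1271.08c (4.59, 3.97, 197 and 154 CPM). With the same minimum the largest fall was in SPBPB7E8.01, which dropped from 454 and 555 to 35.4 and 39.8 CPM (-3.75 ± 0.16). Genes of meiosis and sporulation moved both ways as well, with 41 up and 46 down of 149 tested (27.5% and 30.9%). Among them mug143, with no stated role, rose from 7.32 and 13.4 to 161 and 167 CPM (3.97 ± 0.22) and spo12, a nuclear protein gene, fell from 39.6 and 50.4 to 6 and 3.06 CPM (-3.32 ± 0.29).

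More amino acid synthesis, proteasome and vacuole genes rose than fell, mostly by smaller amounts. Of 66 amino acid synthesis genes 39 rose and 11 fell (median 0.44). These calls were 59.1% and 16.7%, beside 29.7% and 36.5% of coding genes. The homocitrate synthase gene lys4, the first enzyme of lysine synthesis, stood at 997, 1031, 2620 and 2869 CPM (1.44 ± 0.12). The aspartate kinase gene hom3 (1.41 ± 0.12) and the serine pathway gene ser3 (1.36 ± 0.13) rose, while the glutamine synthetase gene gln1 fell from 213 and 248 to 56.7 and 61.8 CPM (-1.96 ± 0.17). The sulfur branch was split, with 7 up and 8 down of 19 (36.8% and 42.1%). Its sulfate transporter gene sul1 rose (1.56 ± 0.12). The genes sua1, for the first enzyme of sulfate assimilation (-1.06 ± 0.11), and sam1, for S-adenosylmethionine synthetase (-1.49 ± 0.10), fell. Of 42 proteasome and polyubiquitin genes 38 rose (median 0.64). Of 98 vacuole, autophagy and V-ATPase genes 53 rose and 17 fell (54.1% and 17.3%, median 0.34). The autophagy initiation gene atg101 stood at 10.9, 16.1, 61.9 and 70.2 CPM (2.28 ± 0.22), and the vacuolar fusion GTPase gene ypt7 rose (1.30 ± 0.10). The V-ATPase subunit genes vph1 (391, 457, 417 and 450 CPM) and vma2 (432, 437, 424 and 471 CPM) were not called.

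In mitochondria, 35 of 69 nuclear genes of the respiratory chain and ATP synthase rose and 7 fell, with a median of 0.26. These calls were 50.7% and 10.1%, beside 29.7% and 36.5% of coding genes. Among them 1 rise and 3 falls were at least 2-fold. That rise was in inh1, the inhibitor of the ATPase, at 45.5, 42.6, 132 and 127 CPM (1.56 ± 0.11). Of 22 genes of the TCA cycle and pyruvate dehydrogenase 12 rose and 3 fell (54.5% and 13.6%, median 0.37). The malate dehydrogenase gene mdh1 stood at 175, 175, 870 and 967 CPM (2.39 ± 0.14) and the citrate synthase gene cit1 at 322, 381, 1021 and 1222 CPM (1.67 ± 0.14). The 3 that fell were all subunits of succinate dehydrogenase: sdh1 (-0.36 ± 0.13), sdh2 (-0.40 ± 0.15) and sdh3 (-0.31 ± 0.10). All 3 calls were lost without treated library 1 (-0.22, -0.22 and -0.18) and without untreated library 2 (-0.24, -0.32 and -0.30), and that of sdh3 also without untreated library 1 (-0.32). Of 14 peroxisome genes 8 rose and 3 fell (57.1% and 21.4%). The import receptor gene pex7 dropped from 981 and 1146 to 264 and 304 CPM (-1.91 ± 0.12), against a rise of pmp20, a peroxisomal thioredoxin-related protein gene, from 1151 and 1371 to 3456 and 3827 CPM (1.53 ± 0.14). Other organelle groups had medians close to 0. Of 66 mitochondrial ribosomal protein genes 8 rose and 23 fell (12.1% and 34.8%, median -0.05). For 89 ER and glycosylation genes the calls were 24 higher and 33 lower (27% and 37.1%, median -0.09). For 90 Golgi and vesicle transport genes they were 27 and 24 (30% and 26.7%, median -0.02). The ER shares lay near those of all coding genes.

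Metal and lipid genes changed in opposite directions within their groups. Of 40 iron, copper and zinc genes 18 rose and 11 fell (45% and 27.5%, beside 29.7% and 36.5% of coding genes). By at least 2-fold 12 rose and 5 fell (30% and 12.5%, beside 10.5% and 11.6%). The median was 0.16, or -0.04 scaled by library totals. The metallothionein gene zym1, whose product binds zinc, stood at 7.32, 14.2, 139 and 158 CPM (3.77 ± 0.30). The iron reductase genes frp1 (79.7, 43.8, 317 and 352 CPM) and frp2 (4.49, 3.53, 39.7 and 35.2 CPM) rose by 2.44 ± 0.22 and 3.22 ± 0.24. The siderophore synthesis gene sib2 rose by 2.78 ± 0.14. Against these the heme pathway gene hem3 fell from 180 and 185 to 20.1 and 32.2 CPM (-2.80 ± 0.15), the vacuolar iron transporter gene pcl1 from 174 and 228 to 31.1 and 38 CPM (-2.54 ± 0.15), and the copper transporter gene ctr4 from 345 and 373 to 63 and 123 CPM (-1.95 ± 0.23). Of 38 ergosterol and SREBP genes 18 rose and 9 fell (47.4% and 23.7%). Their median was 0.17, or -0.03 scaled by library totals. The squalene monooxygenase gene erg1 fell (-1.34 ± 0.11) and the sterol-esterifying are1 rose (2.37 ± 0.12). Of 48 fatty acid, phospholipid and sphingolipid genes 15 rose and 9 fell (31.2% and 18.8%). Their median was 0.03, or -0.16 scaled by library totals and -0.02 without untreated library 1. The fatty acid elongase family gene elo2 (-1.67 ± 0.15) and the phosphatidylinositol synthase gene pis1 (-0.57 ± 0.09) fell. The storage lipid synthesis gene dga1, whose enzyme makes triacylglycerol, rose (1.52 ± 0.10), and so did the lipase genes ptl1 (0.92 ± 0.11) and ptl2 (1.35 ± 0.16).

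Genes that cut the septum between daughter cells fell the furthest as a group. Of 13 septum dissolution genes and regulators 11 fell, all by at least 2-fold, 1 rose and 1 did not pass, and the median was -1.98. Their summed share of counts went from 0.436% and 0.514% to 0.0964% and 0.088%. The gene eng1, for the glucanase of the septum, stood at 701, 857, 30.4 and 30.6 CPM (-4.67 ± 0.21, adjusted p = 4.48e-11). The chitinase gene cts2 stood at 409, 512, 34 and 24.8 CPM (-3.97 ± 0.22). The cell surface glycoprotein gene adg1 (306, 413, 35.1 and 28.4 CPM) and adg2 (692, 907, 91.9 and 83.2 CPM) fell in the same way, with treated libraries far below the untreated ones. The member that rose was sep1, a forkhead factor gene (74.9, 64.9, 119 and 126 CPM, 0.81 ± 0.11). The forkhead site GTAAACA occurred in 46.2% of the 13 septum promoters, in 38.9% of 36 promoters of coding genes that fell at least 8-fold, in 22.6% of 540 of those that fell 2- to 8-fold and in 14.8% of all promoters. It also occurred in 41.6% of 149 promoters of the meiosis group, which moved both ways. Both strands were searched, and the matches are a description.

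**Figure D3:**
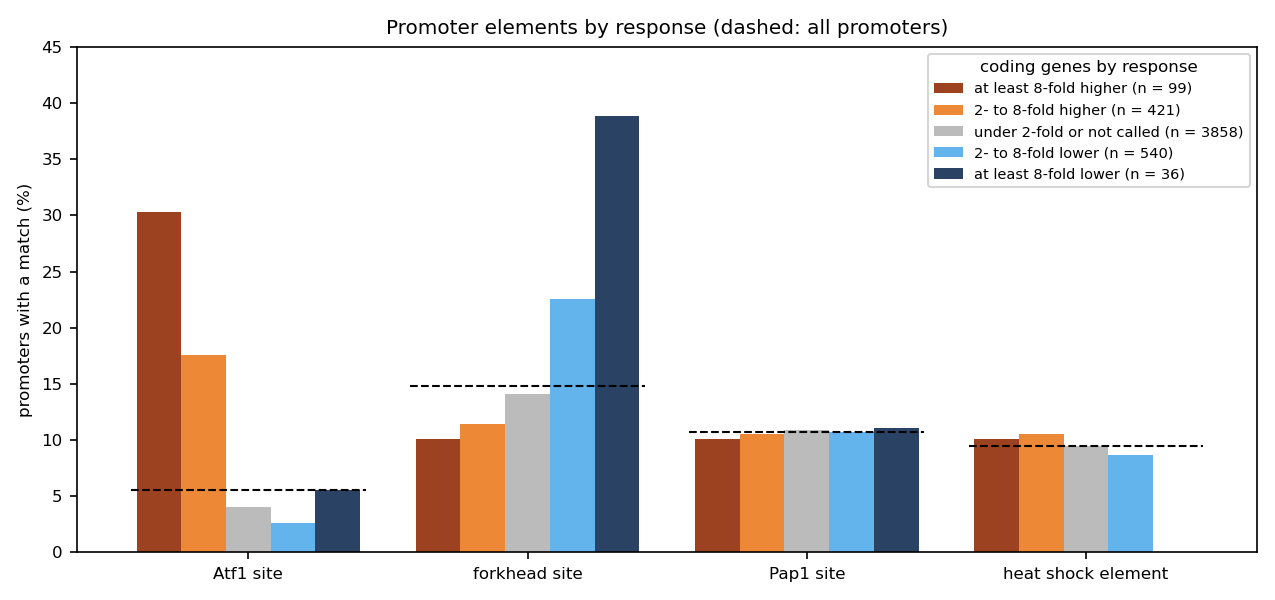
Share of promoters (%) with a match to each element, by the response of the coding gene in wild type; dashed lines give the share over all 5112 promoters. The Atf1 site was in 30.3% of promoters of genes that rose at least 8-fold, and the forkhead site in 38.9% of those of genes that fell at least 8-fold.

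Cell wall and surface genes fell as well. Of 51 glucan synthesis and remodelling genes 33 fell and 7 rose (median -0.58), and their share of counts went from 1.49% and 1.56% to 0.731% and 0.738%. The glucanosyltransferase gene gas1, which lengthens wall glucan, stood at 2373, 2650, 121 and 112 CPM (-4.43 ± 0.20). Its relatives parted: gas5 fell (-2.61 ± 0.20), and gas2 rose from 699 and 949 to 2361 and 2616 CPM (1.59 ± 0.14). The wall proteins ecm33 (3246, 3747, 799 and 783 CPM) and psu1 (1368, 1636, 420 and 466 CPM) were, with gas1, among the 12 called coding genes that lost most CPM. None of 16 flocculin and adhesin genes tested rose and 14 fell (median -1.07), with pfl3 at 90.4, 111, 20.9 and 15.7 CPM.

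More genes of mitosis, the spindle and replication fell than rose, while actin genes were split. Of 62 mitotic regulator, cohesin and condensin genes 41 fell and 8 rose (median -0.54). The APC activator gene slp1, which triggers anaphase, stood at 213, 244, 16.8 and 16.6 CPM (-3.77 ± 0.22), and the septation kinase gene sid1 at 14.6, 18.8, 0.737 and 2.07 CPM (-3.55 ± 0.29). The septation GTPase gene spg1 rose (1.12 ± 0.11), as did pyp3 (1.49 ± 0.11), a phosphatase gene. Of 82 microtubule and kinetochore genes 49 fell and 14 rose (median -0.56), with the Aurora kinase gene ark1 at 36.4, 37.6, 5.16 and 5.13 CPM (-2.85 ± 0.15) and the kinesin gene klp6 at -2.75 ± 0.13. The tubulin genes nda2 (541, 534, 463 and 472 CPM) and nda3 (715, 774, 620 and 700 CPM) did not pass, but were called lower when scaled by library totals (-0.39 and -0.36), as nda2 was with limma-voom (-0.20). Of 66 replication genes and MBF factors 43 fell and 12 rose (median -0.56). The licensing factor gene cdt1 (-2.15 ± 0.17), the polymerase gene pol1 (-1.97 ± 0.12) and the helicase gene mcm6 (-1.70 ± 0.13) fell. The ribonucleotide reductase inhibitor gene spd1 stood at 119, 126, 317 and 349 CPM (1.45 ± 0.10). Of 63 actin and contractile ring genes 21 rose and 25 fell (33.3% and 39.7%, beside 29.7% and 36.5% of coding genes), with a median of -0.04. The contractile ring genes cdc15 (-2.51 ± 0.15), pxl1 (-3.03 ± 0.19) and myp2 (-2.26 ± 0.14) fell. In contrast arp2 of the actin patch complex (0.99 ± 0.12) and the fimbrin gene fim1 (0.79 ± 0.12) rose. Actin itself, act1, did not pass (2558, 3020, 2835 and 3100 CPM). The share of cells at each cell cycle stage was not measured, and in bulk RNA fewer cells in a stage and less RNA per cell cannot be told apart.

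Mating genes and many nitrogen transport genes fell, several from low levels. Of 36 pheromone response and mating genes 20 fell and 5 rose (55.6% and 13.9%, beside 36.5% and 29.7% of coding genes, median -0.63). The master regulator gene ste11 stood at 14.2, 12.9, 0.737 and 0.987 CPM (-3.95 ± 0.28), and ste6, which encodes a Ras activator of the pheromone pathway, at 16.4, 20.2, 1.89 and 2.47 CPM (-3.06 ± 0.26). The formin gene fus1, needed for cell fusion, rose from 17.5 and 16.7 to 66 and 61.7 CPM (1.90 ± 0.15). Of 41 genes for transport and use of nitrogen sources 22 fell and 9 rose (53.7% and 22%), 12 and 4 by at least 2-fold. The amino acid permease gene isp5 (19.3, 21.9, 1.26 and 1.38 CPM), the oligopeptide transporter gene isp4 (87.7, 186, 14.4 and 16 CPM) and the peptide transporter gene ptr2 (81.9, 76.8, 9.47 and 8.98 CPM) fell, while the basic amino acid permease gene cat1 rose from 111 and 103 to 378 and 402 CPM (1.86 ± 0.11).

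Phosphate and pyrimidine genes were among those with large falls. The inorganic phosphate transporter gene pho842 stood at 277, 274, 7.16 and 4.64 CPM, far apart in the 2 conditions (-5.55 ± 0.19, adjusted p = 5.86e-12). Of 11 phosphate genes 7 fell and 1 rose (median -0.60). The polyphosphate synthesis genes vtc2 (-0.77 ± 0.09) and vtc4 (-0.79 ± 0.09) fell, and pqr1, a ubiquitin ligase gene of the phosphate pathway, rose (1.46 ± 0.10). The uracil-regulated genes urg1 (542, 938, 31.9 and 26 CPM), urg2 (570, 855, 41.6 and 42.7 CPM) and urg3 (328, 446, 46.3 and 49.9 CPM) fell by 4.68 ± 0.26, 4.08 ± 0.21 and 3.01 ± 0.14 on the log2 scale. Their untreated libraries differed from each other, library 2 being the higher in all 3. Of 35 purine and pyrimidine genes 21 fell and 5 rose (median -0.32). Over 190 annotated transporters of all kinds 59 rose and 81 fell (31.1% and 42.6%, beside 29.7% and 36.5% of coding genes). The largest rise was in SPCC794.04c, a transporter with no stated substrate (2.64, 5.12, 250 and 289 CPM, 6.10 ± 0.28). The plasma membrane proton pump gene pma1 did not pass (1682, 2042, 2019 and 2066 CPM).

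Genes that build ribosomes fell, and genes for ribosomal proteins changed less, by the medians below. None of 97 ribosome biogenesis genes rose and 88 fell (median -1.01), and their share of counts went from 2.77% and 2.65% to 1.30% and 1.24%. Of 38 RNA polymerase I and III genes 30 fell and 2 rose (median -0.58). The product of maf1, a gene that rose, inhibits RNA polymerase III (29.1, 30.6, 70.3 and 69.7 CPM, 1.23 ± 0.11). Of 62 tRNA modification and processing genes 43 fell and 1 rose (median -0.58), with trz2, for a tRNA end-processing nuclease, at 61.5, 56, 13.4 and 14 CPM (-2.10 ± 0.13). For 140 cytosolic ribosomal protein genes the median was -0.14, or -0.33 scaled by library totals. Of these genes 27 fell (19.3%, beside 36.5% of coding genes) and none rose. Their share of counts went from 23.6% and 24.9% to 19.2% and 19.4%. A single one of them fell at least 2-fold: rps1401, one of a pair of near-identical genes for the same protein, stood at 464, 548, 85.7 and 96.4 CPM (-2.47 ± 0.12). Reads from near-identical copies may be split between them, so its value is uncertain. Of 60 translation factor genes 8 rose and 16 fell (13.3% and 26.7%, median -0.08). The initiation factor genes tif471 (-0.60 ± 0.10) and sum3 (-0.95 ± 0.10) and the elongation factor genes tif51 (-0.80 ± 0.13) and tef3 (-0.53 ± 0.11) fell. The no-go decay genes dom34 (1.25 ± 0.10) and hbs1 (1.42 ± 0.11), whose products rescue stalled ribosomes, and the eIF2 kinase genes gcn2 (1.11 ± 0.10) and hri2 (0.73 ± 0.10), whose products restrain initiation, rose. Of 54 RNA decay genes 18 rose and 24 fell (33.3% and 44.4%, beside 29.7% and 36.5% of coding genes), with a median of -0.13. The Pumilio family gene puf3 (1.25 ± 0.10) and the decapping enhancer gene edc3 (0.82 ± 0.11) rose. The nuclear exosome genes rrp41 (-2.01 ± 0.15), rrp4 (-1.09 ± 0.09) and rrp6 (-1.40 ± 0.09) and the nonsense decay helicase gene upf1 (-1.61 ± 0.11) fell.

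Signalling genes moved in both directions, with 59 up and 63 down of 162 kinase, phosphatase and cAMP pathway genes and a median of 0.00, or -0.19 scaled by library totals. These calls were 36.4% and 38.9% of the group, beside 29.7% and 36.5% of coding genes. The stress phosphatase gene pyp2, which acts back on Sty1, stood at 23.4, 18, 677 and 728 CPM (5.09 ± 0.22), and srk1, a kinase gene downstream of Sty1, at 75.3, 78.5, 1103 and 1204 CPM (3.91 ± 0.20). Another kinase gene, oca2, went from 17.3 and 17 to 204 and 195 CPM (3.54 ± 0.09). The catalytic subunit gene of protein kinase A, pka1, went from 60.7 and 64.2 to 458 and 465 CPM (2.88 ± 0.14), and the glucose receptor gene git3, at the head of the same pathway, fell from 42 and 33.5 to 8.21 and 5.92 CPM (-2.42 ± 0.19). Of 70 transcription factor genes 23 rose and 27 fell (32.9% and 38.6%). The zinc-finger factor gene rsv2 rose from 36.4 and 45.7 to 525 and 618 CPM (3.80 ± 0.25), pcr1, which encodes the partner of Atf1, from 33.6 and 28.7 to 216 and 233 CPM (2.85 ± 0.13), and atf1 from 94.1 and 120 to 327 and 375 CPM (1.71 ± 0.15). The factor gene tos4 fell (-2.46 ± 0.16). The longevity gene ecl1 stood at 6.25, 4.86, 265 and 333 CPM (5.76 ± 0.20).

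Ubiquitin ligases and their relatives were split, with 57 up and 41 down of 156 and a median of 0.07, or -0.12 scaled by library totals. These calls were 36.5% and 26.3% of the group, beside 29.7% and 36.5% of coding genes. The fusion protein gene wss2, of a ubiquitin-like protein and a metalloprotease, rose (2.86 ± 0.17), as did the F-box gene pof14 (2.76 ± 0.13) and the ubiquitin hydrolase gene ubp11 (2.57 ± 0.13). Chromatin genes leaned downward, with 60 down and 16 up of 128 (46.9% and 12.5%, beside 36.5% and 29.7% of coding genes, median -0.21). The silencing genes clr5 (190, 167, 38.9 and 34.2 CPM, -2.29 ± 0.17) and clr4, for the H3K9 methyltransferase (10.8, 11.4, 3.16 and 4.34 CPM, -1.56 ± 0.22), fell. Histone H3 and H4 gene pairs parted: hht2 (-0.61 ± 0.11) and hhf2 (-1.10 ± 0.09) fell, and hht3 (0.79 ± 0.14) and hhf3 (0.99 ± 0.14) rose. These are near-identical copies whose reads cannot be placed with certainty. Of 96 DNA repair genes 21 rose and 37 fell (21.9% and 38.5%). The alkylation repair gene mag2 rose from 1.17 and 1.15 to 13.7 and 13.5 CPM (3.54 ± 0.35), and eme1, for a junction resolvase subunit, fell from 19.4 and 16.8 to 1.58 and 2.66 CPM (-3.08 ± 0.30).

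Induced genes more often lacked introns. Among coding genes without introns 14% of 2521 rose at least 2-fold, against 6.91% of 2433 genes with introns. Of the 20 largest rises 18 were in genes without introns, but so were 19 of the 20 largest falls. The share that fell at least 2-fold was 13.1% without and 10.1% with introns. Coding genes were then split into 5 equal bins by mean level per kb over the 4 wild type libraries. Within each bin the share with rises was higher for genes without introns, at 13% against 4.84% in the lowest and 20.4% against 9.52% in the highest. By coding length the longest of 5 bins had the smallest share of rises, 6.96%, against 11% to 12.2% in the others. By position the bin of genes nearest a chromosome end had the largest share of rises, 14.7%, against 8.78% to 10.6% in the others. These shares are descriptions over genes that are not independent, with no test.

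**Figure D4:**
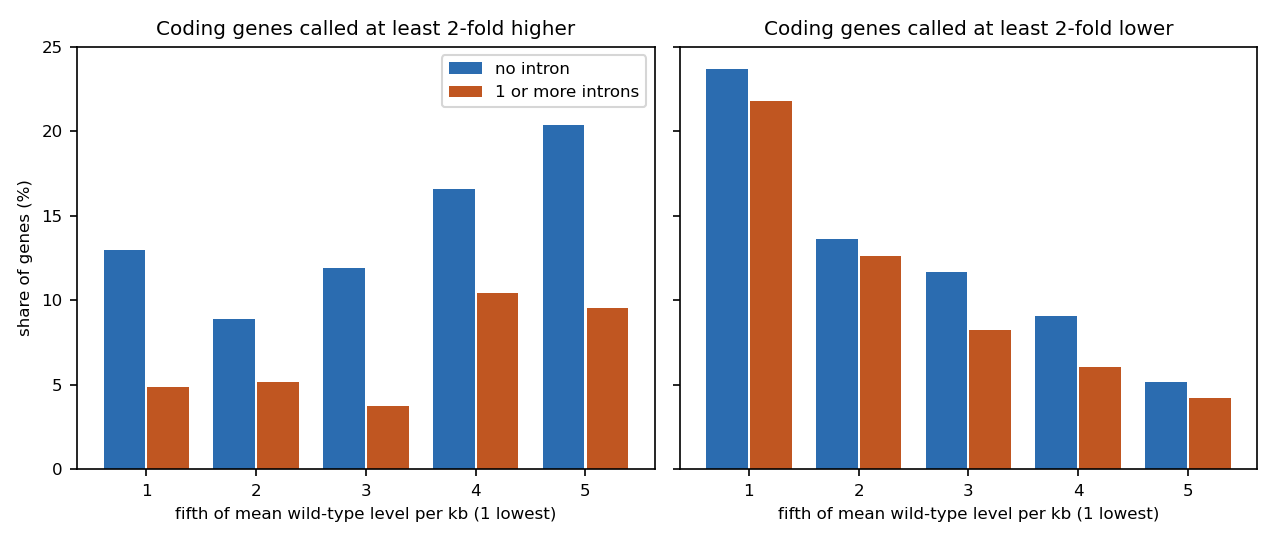
Share (%) of coding genes that rose (left) or fell (right) at least 2-fold in wild type, by 5 bins of the mean level per kb over the 4 wild type libraries, for genes without and with introns. In each bin more genes without introns rose, 20.4% against 9.52% in the highest bin.

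Non-coding RNAs responded too. Of 3110 long non-coding RNAs tested 638 rose (20.5%) and 384 fell (12.3%), 534 and 280 by at least 2-fold (17.2% and 9%). SPNCRNA.540 had no count in the untreated libraries and 27.3 and 19.7 CPM in the treated ones, at least 168-fold higher against a floor of 3 counts over the untreated group. SPNCRNA.2293 rose in the same way, from no counts to 16 and 20.5 CPM (at least 132-fold higher). SPNCRNA.570 was also strongly induced, at 4.98, 3.62, 294 and 259 CPM (6.01 ± 0.26). SPNCRNA.1153 fell from 20.2 and 12.7 to 2.84 and 1.68 CPM (-2.86 ± 0.31). Small nucleolar RNAs, which guide rRNA modification, rose in 22 of 42 cases and fell in 3, and their share of counts in this polyA RNA went from 0.0445% and 0.0431% to 0.189% and 0.192%.

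Antisense RNAs of induced genes fell more often than those of all pairs. In 1436 pairs an antisense long non-coding RNA covered more than 50% of a coding gene, and 227 of these RNAs (15.8%) fell and 244 (17%) rose. Where the coding gene rose at least 2-fold, 48 of 154 antisense RNAs fell (31.2%) and 29 rose (18.8%). Where it fell at least 2-fold, 31 of 185 fell (16.8%) and 32 rose (17.3%). The antisense SPNCRNA.1505 of the phosphoketolase gene SPBC24C6.09c stood at 76.7, 78, 20.1 and 18.8 CPM (-1.99 ± 0.16), and the antisense SPNCRNA.706 of ssd2 at 34.9, 38.2, 10.2 and 10.5 CPM (-1.82 ± 0.16). In the other direction nog2, for a ribosome assembly GTPase, fell from 444 and 478 to 168 and 176 CPM (-1.42). Its antisense SPNCRNA.847 went from 2 counts in each untreated library to 131 and 181, a ratio of 85.7 with an exact 95% interval of 33.1 to 316. Similarly swd22, annotated as a subunit of an H3K4 methyltransferase complex, fell (-1.64 ± 0.11) beside a rise of SPNCRNA.755 from 1.76 and 1.94 to 12.7 and 10.4 CPM (2.63 ± 0.29). Of the 20 largest rises 12 were in genes covered over more than 50% of their length by genes on the opposite strand. The same held for 12 of the 20 largest falls. The kit keeps strand, and coding genes covered to at least 95% on the opposite strand had a mean of at least 10 counts as often (92.1% of 853) as those with nothing opposite (89.6% of 518). How the counting treated strand was not stated in the labels, so reads of overlapping genes may not be fully separated.

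The mutants show where the wild type response, as a log2 fold change, was larger or smaller than theirs. Such a difference can lie in the untreated levels, the treated levels or both, and mutant levels are not given here. The difference between a mutant's response and that of wild type was tested for every gene, and it was called for 1016 coding genes in ubp8 (20.5%) and 1748 in ubp16 (35.3%). Over all genes tested these counts were 1374 and 2240 (16.8% and 27.4%). The ubp8 count was 414 to 908 when treated wild type library 1 or 2, untreated wild type library 2, treated ubp8 library 1 or 2, or untreated ubp8 library 2 was left out. Of the 520 coding genes that rose at least 2-fold in wild type, the response was called smaller in 84 in ubp8 and in 286 in ubp16, against background shares of 3.75% and 17.3% of coding genes called lower in the mutant. Of the 576 that fell, it was smaller in 222 and 265, against 16.8% and 18% of coding genes called higher in the mutant. As shares of these groups, the counts were 16.2% and 55% of the rises and 38.5% and 46% of the falls. These genes were chosen on the wild type libraries that also enter the difference, so the counts are descriptions. Among the 20 largest rises the median was 5.69 in wild type, 5.16 in ubp8 and 2.44 in ubp16, and 18 of the 20 were called smaller in ubp16. The transporter gene SPCC794.04c rose by 6.10 ± 0.28 in wild type and by 0.74 in ubp16, a difference of -5.36 ± 0.34 (adjusted p = 1.47e-08). The methyltransferase gene SPCC70.08c stood at 4.87 ± 0.22 in wild type and 0.06 in ubp16 (difference -4.81 ± 0.35). The response of inv1 was smaller in ubp8 (3.14 against 4.99, difference -1.85 ± 0.27, adjusted p = 0.000491), and in ubp16 it stood at 4.83 (difference -0.17 ± 0.27, adjusted p = 0.688). In ubp16 urg1 and urg2 changed in the opposite direction, by 3.38 and 2.89 against -4.68 and -4.08 in wild type. The septum gene eng1 differed from wild type by 0.23 ± 0.27 in ubp8 (adjusted p = 0.601) and by 0.38 ± 0.28 in ubp16 (adjusted p = 0.345), neither of them called.

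**Figure D5:**
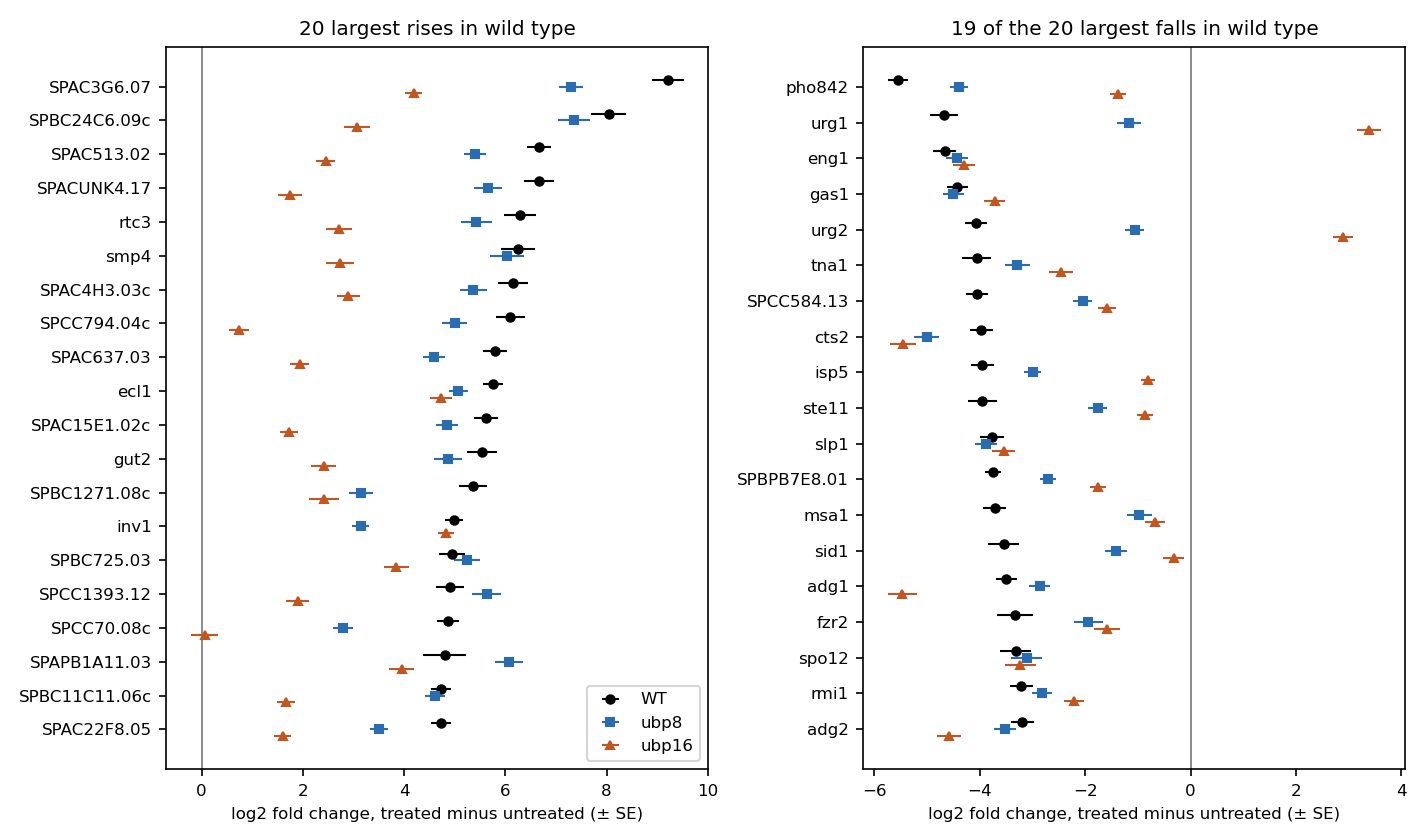
Log2 fold change ± SE of treated minus untreated cells in wild type, ubp8 and ubp16 for the 20 largest rises and 19 of the 20 largest falls in wild type outside the classical groups. Rises in ubp16 lie to the left of those in wild type for 18 called genes, and urg1 and urg2 lie on the other side of 0.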

How the data were processed

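The data were read counts per gene in 12 libraries (3 strains, untreated or treated, 2 libraries each), in the authors' deposited count table. FastQC, Trimmomatic, STAR, HTSeq and DESeq2 are named in the submitters' processing notes. The genome build used for the counts was not stated. Total counts ran from 9904056 to 14054746, and 3 counts equal 0.265 to 0.316 CPM in the wild type libraries.

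All 12 libraries entered 1 fit in edgeR 4.0.16 (R 4.3.3), with TMM scaling, filterByExpr by group and glmQLFTest. Contrasts were treated minus untreated wild type, and each mutant's response minus that of wild type. P-values were Benjamini-Hochberg adjusted over the 8166 genes tested, with a threshold of 0.05, and each SE was derived from the fitted change and its F statistic. The fit was also run on simulated counts in which far fewer genes changed, equally in both directions and by less than the largest changes here. That run does not test the scaling for a response this broad. Of 12683 gene IDs 12603 matched RefSeq's ASM294v3, which gave names, products, introns, overlaps and promoter windows; the other 80 held 0.062% of counts. Replicate libraries differed by more than sampling noise (chi-square per degree of freedom 10 and 5.21 in wild type).

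Named genes were the 20 largest rises and falls of coding genes outside 5 classical lists (called, mean of at least 50 counts, no overlap between conditions), up to 4 called members per direction and 2 not called from each of 57 lists, the 12 largest gains and losses of CPM, and ubp8, ubp16 and ctt1. A few further genes (antisense RNAs with the partner nog2, and other non-coding RNAs) were chosen after their values were seen. Members and lists were chosen with earlier results of these data known. After values had been seen, gup1, fps1, prs1, sol1, lsc1, pxa1 and ada1 were taken off lists because their symbols belong to other functions, and the bins by level were set on the mean of the 4 wild type libraries in place of the untreated level. No list was tested. Some results are not reported here. The alternatives tried were other scalings, tests, filters, gene sets and fits, and leaving out each library. Same-numbered libraries were not treated as pairs.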

Additional observations from a re-analysis of the deposited data

Results flagged for a closer look

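For the 40 genes with the largest wild type changes outside the classical stress lists, the 5 with the largest called difference in response from wild type are given for each mutant. They were chosen on wild type libraries that also enter the difference, and the tests were adjusted over 8166 genes in edgeR's quasi-likelihood test.

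The uracil-regulated genes urg1 and urg2 fell in wild type (-4.68 and -4.08), stood at -1.17 and -1.06 in ubp8, and rose in ubp16 (3.38 and 2.89). The differences from wild type were 3.51 ± 0.33 (adjusted p = 1.15e-05) and 3.02 ± 0.27 (adjusted p = 9.76e-06) in ubp8. In ubp16 they were 8.05 ± 0.35 (adjusted p = 1.59e-10) and 6.97 ± 0.28 (adjusted p = 7.55e-11).

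Falls were smaller in ubp8 for msa1 (-0.97 against -3.72, difference 2.74 ± 0.33) and for the mating regulator gene ste11 (-1.76 against -3.95, difference 2.19 ± 0.37). The uncharacterized gene SPBC1271.08c rose less in ubp8 (3.15 against 5.36, difference -2.21 ± 0.38).

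Rises were smaller in ubp16 for the transporter gene SPCC794.04c (0.74 against 6.10, difference -5.36 ± 0.34), the uncharacterized gene SPAC3G6.07 (4.19 against 9.21, difference -5.01 ± 0.55) and the phosphoketolase gene SPBC24C6.09c (3.07 against 8.04, difference -4.97 ± 0.40). The wild type value of SPAC3G6.07 rests on 2 counts in the untreated libraries. Among classical genes, which were not part of this choice, the ubp16 difference was -5.43 for ddr48, -5.21 for wwm3 and -5.10 for lsd90.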

How the results depend on the processing

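Scaling, test, filter and fit left the counts of wild type calls within 1.5 times. Genes called higher numbered 2139, with 1686 by library totals and 2201 by median-of-ratios size factors, and genes called lower 2207, with 2948 and 2165. DESeq2 1.42.0 called 2051 and 2009, limma-voom 2097 and 2143. Coding genes alone, where fewer genes are tested, gave 549 rises and 542 falls of at least 2-fold and 721 differences in ubp8. Leaving out each library in turn gave 1868 to 2182 genes higher, 1775 to 2271 lower, 985 to 1091 at least 2-fold higher and 782 to 878 at least 2-fold lower. Differences in ubp16 ranged from 1688 to 2177 (2240 with all libraries), and those in ubp8 from 414 to 1630 (1374 with all). The ubp8 count was 414 without treated wild type library 1, 878 without treated wild type library 2, 568 without untreated wild type library 2, 414 without treated ubp8 library 1, 908 without treated ubp8 library 2 and 595 without untreated ubp8 library 2. The cause was not tested.

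Deviations of same-numbered untreated and treated libraries correlated at 0.112 in wild type, 0.18 in ubp8 and 0.144 in ubp16, and over all pairs of groups at -0.0886 to 0.191. The labels do not say that a number marks a shared culture or day, and with 2 libraries a group the samples were not taken as paired. With the replicate number as a block the counts were 2191 higher, 2281 lower, 1080 and 874 at least 2-fold, 1680 differences in ubp8 and 2459 in ubp16.

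Of 177 genes checked 6 changed their call under some alternative, and 3696 of 3707 values kept direction and side of the threshold. The medians of 7 of 57 lists changed sign with library totals, and those of 6 with some other alternative. Some lists are in both counts. Levels under about 1 CPM rest on few counts, and 2 libraries a group limit the precision of every SE.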
